A study of Mus musculus with 40 samples.

Results

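Meningeal fibroblast and collagen genes were described in bulk RNA from the somatomotor cortex, left side, of 3xTg-AD females that had received repeated closed-head injury (CHI). They were the 10 rows of the count table named Col1a1, Col1a2, Col3a1, Dcn, Lum, Igf2, Slc6a13, Slc6a20a, Ptgds and Aldh1a2, out of 55539 features listed, and all 10 were among the 15224 features with enough counts to be tested. The genes were selected on their levels in these samples, whose variation was already known, so their spread and their correlations are given as a description without a test. Comparisons between groups come from fits over all genes, and for genes chosen in this way they are not independent evidence. The 3xTg-AD line is a model of Alzheimer's disease in which neurons express mutant human APP and MAPT from a Thy1 promoter together with a mutant presenilin 1. Every mouse carried these alleles, no wild-type mouse was sequenced, and all were 2 to 4 months old. A weight-drop injury to the closed head was given once a day under isoflurane. Samples were taken 0.5, 4 or 24 h after 1 injury (1xCHI, n = 3, 3 and 4), 24 h after 2 injuries (2xCHI, n = 3), 0.5, 4 or 24 h after 3 injuries (3xCHI, n = 3, 2 and 4), 24 h after 4 injuries (4xCHI, n = 3), and 0.5, 4 or 24 h after 5 injuries (5xCHI, n = 3, 3 and 4). The sham-injured mice (Sham, n = 4) had the anesthesia without the impact. Sample 30 (3xCHI at 4 h) was left out because of its protein measurements, which left 39 samples in 12 groups.

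The meninges are thin sheets that cover the brain. Their fibroblasts make the collagen fibrils and small proteoglycans of these sheets, and related fibroblasts surround the larger vessels that enter the cortex. Fibroblasts of the inner layers also carry solute transporters, make retinoic acid and release insulin-like growth factor 2. Neurons, astrocytes and oligodendrocytes make little fibrillar collagen, so these transcripts are commonly read as the fibroblast content of a piece of brain. In bulk RNA, fewer cells of a type and less RNA per cell cannot be told apart.

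Type I collagen is a trimer encoded by Col1a1 (chromosome 11, 94936224 to 94953042, GRCm38, plus strand) and Col1a2 (chromosome 6, 4504814 to 4541544, plus strand), and type III collagen is encoded by Col3a1 (chromosome 1, 45311538 to 45349706, plus strand). Dcn and Lum encode decorin and lumican, small leucine-rich proteoglycans that bind collagen fibrils, and lie on the plus strand of chromosome 10 (97479609 to 97518143 and 97565128 to 97572703) with 46985 bases between them. Igf2, an imprinted growth factor gene, lies on the minus strand of chromosome 7 (142650766 to 142666816) and overlaps Gm49394, Igf2os and Mir483 in the annotation. In the annotation, parts of Col1a2, Col3a1, Slc6a13, Slc6a20a and Aldh1a2 are also covered by other features, mostly predicted genes, and whether the counting used the strand is not given in the sources used here. Slc6a13 (chromosome 6, 121300227 to 121337733, plus strand) encodes the GABA transporter GAT2, and Slc6a20a (chromosome 9, 123634770 to 123678885, minus strand) encodes the proline transporter SIT1. Ptgds (chromosome 2, 25466709 to 25470046, minus strand) encodes the lipocalin-type prostaglandin D synthase, and Aldh1a2 (chromosome 9, 71215789 to 71296243, plus strand) encodes a retinaldehyde dehydrogenase that makes retinoic acid.

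Since the 10 genes rose and fell together across samples, the RefSeq windows upstream of their starts were read for 5 short motifs. Windows were found for 7 of the 10 genes (12 windows of 250 bases). The 150 bases before the start are shown for a collagen gene and for the enzyme gene, whose RefSeq and GENCODE starts coincide, with TATAAA or CCAAT in capitals (GRCm38.p6, 5′ to 3′, chr1:45311388-45311537 on the plus strand and chr9:71215639-71215788 on the plus strand).
Col3a1: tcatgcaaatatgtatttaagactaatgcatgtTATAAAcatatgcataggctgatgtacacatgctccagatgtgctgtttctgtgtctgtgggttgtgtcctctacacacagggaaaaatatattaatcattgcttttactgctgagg
Aldh1a2: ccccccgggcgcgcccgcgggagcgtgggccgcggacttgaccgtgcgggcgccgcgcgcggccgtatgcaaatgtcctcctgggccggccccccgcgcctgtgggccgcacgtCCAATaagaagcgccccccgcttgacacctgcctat
The window of Col3a1 was rich in A and T and that of Aldh1a2 rich in G and C. On either strand, TATAAA was in 1 of the 12 windows and in 12.4% of 32851 promoter windows of all genes, CCAAT in 4 and 33.9%, GGGCGG in 5 and 32.7%, TGACTCA in 1 and 4.46%, and CACGTG in 0 and 6.02%. None of the 5 motifs was shared by all of the genes, and a match of letters is not a binding site.

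The table held estimated counts, which were divided by each sample's total and multiplied by 1000000 to give CPM. Total counts were 15926014 to 27859547 per sample (median 19028778), and the lowest count of any of the 10 genes in any sample was 15. The 12 neuronal genes, led by Camk2a and Snap25, summed to 8227 to 13824 CPM. This goes with a piece of brain but does not place it in the labelled somatomotor cortex. Nothing in the labels ties samples to separate batches, and the p-values below measure the spread between these samples. Earlier analysis of these data had shown a change in the whole profile between samples numbered 1 to 18 and 19 to 40, and 3 of the 4 Sham samples are in the second range, so that results are also given within these ranges.

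Averaged over the 39 samples and divided by exon length, the Ptgds level was 441 CPM per kb, far above Igf2 at 9.41, Aldh1a2 at 4.18, Slc6a20a at 4.06, Slc6a13 at 2.67, Dcn at 2.16, Col1a1 at 2.04, Col1a2 at 1.72, Lum at 1.24 and Col3a1 at 0.591 CPM per kb. From Aldh1a2 to Lum, neighbors in this order differed by less than their spread between samples. Across samples every gene varied at least 6-fold. The ratio of the highest to the lowest sample ran from 6.15 for Col1a1 to 18.6 for Slc6a13.

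Col1a1 was at 13.7, 7.90, 6.25 and 7.66 CPM in the 4 Sham samples. After 1xCHI it ranged from 5.39 through a median of 9.54 to 32.1 CPM, and after 2xCHI it was 12.1, 10.3 and 9.12 CPM. After 3xCHI the lowest, median and highest levels were 8.16, 13.2 and 33.1 CPM. The groups overlapped throughout, and 5 of 10 5xCHI samples lay above the highest Sham sample. After 4xCHI the samples were at 21.8, 8.69 and 21.6 CPM, and after 5xCHI Col1a1 ran from 7.86 through 13.4 to 24.6 CPM. The 2 highest samples were 38 (3xCHI at 24 h) and 15 (1xCHI at 4 h).

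Col1a2 and Col3a1 had the same pair of samples at the top. Col1a2 was at 64.8 CPM in sample 15 and 50.1 CPM in sample 38, against 29.0, 16.1, 16.7 and 18.7 CPM in Sham and a median of 18.5 CPM over all samples. Col3a1 was at 20.3 and 19.5 CPM in these samples, against 6.59, 2.98, 2.73 and 4.28 CPM in Sham and a median of 4.52 CPM. With both samples set aside, the highest levels of the 3 collagens were 24.6 CPM for Col1a1 (sample 8, 5xCHI at 0.5 h), and 37.7 and 11.8 CPM for Col1a2 and Col3a1 (both sample 37, 3xCHI at 24 h).

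The proteoglycan genes varied in the same samples. Dcn was at 21.3, 12.3, 7.25 and 9.99 CPM in Sham, at 43.2 CPM in sample 15 and at 33.3 CPM in sample 38. Its lowest level was 4.88 CPM in sample 25 (4xCHI), whose 4xCHI neighbors were at 20.0 and 17.9 CPM. Lum, the least counted of the 10, was at 6.26, 3.63, 2.58 and 2.78 CPM in Sham. It reached 10.3 CPM in sample 38 and 9.62 CPM in sample 15, and was at 0.803 CPM in sample 16, which belongs to the same group as sample 15.

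Igf2 stood partly apart. It was at 69.7, 38.6, 47.7 and 58.1 CPM in Sham and at 208 CPM in sample 15, yet the next samples in order were 31 (5xCHI at 0.5 h) at 112 CPM and 32 (5xCHI at 4 h) at 105 CPM. The same samples 31 and 32 were highest in Ttr, which encodes transthyretin of the choroid plexus, a tissue that also transcribes Igf2, at 2378 and 1202 CPM. Over 39 samples the Pearson r of log2 Igf2 with log2 Ttr was 0.55, against 0.05 to 0.21 for the other 9 genes. Ttr was at 31.0 CPM in sample 15 and 9.61 CPM in sample 38, and its part in the Igf2 level was not tested.

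The transporter genes had 1 outstanding sample. Slc6a20a was at 26.4, 16.2, 14.3 and 18.6 CPM in Sham and at 80.1 CPM in sample 15, where the other 38 samples did not exceed 26.4 CPM. After 5xCHI its lowest, median and highest levels were 8.49, 13.7 and 20.3 CPM, and 7 of 10 samples lay below the lowest Sham sample. After 4xCHI it was at 18.8, 6.81 and 20.6 CPM. Slc6a20a lies next to its near copy Slc6a20b, and 27 of its 39 estimated counts were not whole, so its reads were partly divided between genes and its level is uncertain. Slc6a20b never exceeded 2.70 CPM. Slc6a13 was at 11.5, 7.36, 7.57 and 6.11 CPM in Sham, at 35.9 CPM in sample 15 and at 1.93 CPM in sample 25.

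The enzyme genes followed the transporters. Ptgds, which oligodendrocytes and the choroid plexus also express, was at 884, 637, 558 and 587 CPM in Sham and at 3551 CPM in sample 15, where the other samples reached at most 1113 CPM. In that sample the mean z-score of 12 oligodendrocyte genes was 0.80, and ranked 7 of 39. Aldh1a2 was at 10.9, 8.04, 6.67 and 6.83 CPM in Sham. In the 1xCHI group at 4 h it was at 46.9, 17.8 and 9.90 CPM, the 2 highest levels of all samples among them. It ran from 4.94 to 9.54 CPM after 5xCHI, and 5 of 10 of these samples lay below the lowest Sham sample.

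**Figure D1:**
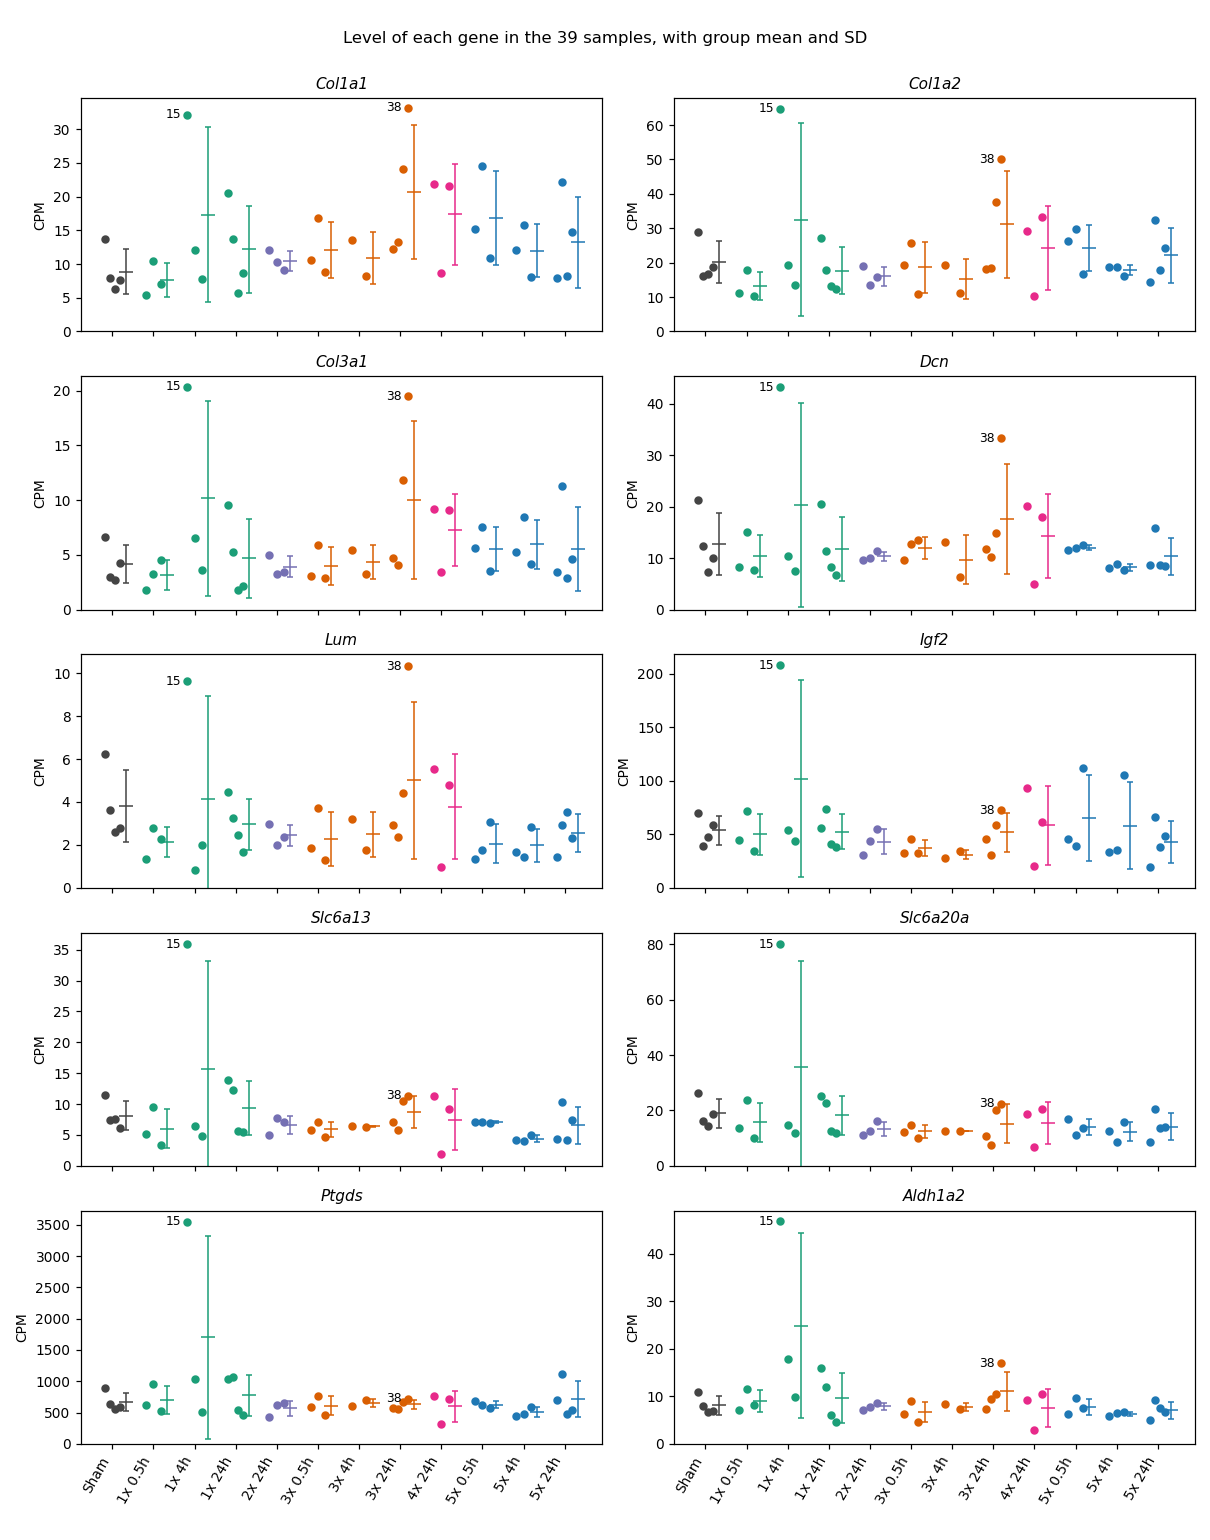
Each panel plots 1 gene: the vertical axis is its level in CPM and the horizontal axis the 12 groups by number of injuries and hours after the last. Points are samples, with sample numbers 15 and 38 written beside them, and the bar beside each group is the mean ± SD (bars that would pass below 0 are cut at 0). Sample 15 was highest for 8 genes and sample 38 for Col1a1 and Lum.

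Sample 15 was thus highest for 8 of 10 genes and sample 25 lowest for 6 of 10. The widest fold within a group was that of the 1xCHI 4 h group for all 10 genes, from 4.17 for Col1a1 to 12.0 for Lum. This compares with a fold of 1.58 for Ptgds to 2.94 for Dcn among the Sham samples. On the log2 CPM scale the within-group SD was 0.55 for Ptgds to 0.84 for Lum, with a median of 0.66 over the 10 genes against 0.21 over all genes tested. Each of the 10 had a larger within-group SD than at least 94.2% of the genes tested. Group membership covered 17.2% (Dcn) to 44.8% (Aldh1a2) of the variance of a gene, with a median of 24.9% against 29.0% over all genes tested. The 10 genes were thus far more variable than most genes, mainly within groups.

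Over the 39 samples, the 45 pairs of genes had Pearson r of log2 CPM from 0.44 (Col1a1 with Igf2) to 0.92 (Col1a1 with Col3a1), with a median of 0.71, and Spearman rho from 0.35 to 0.87 with a median of 0.62. The points share libraries, and TMM scaling, so that these values are a description. Within the set, 2 blocks were closer. The 3 collagen genes had a median r of 0.90, and the 4 genes Slc6a13, Slc6a20a, Ptgds and Aldh1a2 one of 0.86, while the 12 pairs between these blocks had a median of 0.62. After each group mean was subtracted, the median over the 45 pairs was 0.81 and that between the blocks 0.79. Within the blocks these medians were 0.92 and 0.87, so the blocks stood closer together within groups than in the levels but still apart. The lowest pairs within groups were Igf2 with Col3a1 (0.49) and with Col1a1 (0.52). Without samples 15 and 38 the medians were 0.58 over all pairs and 0.47 between the blocks.

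**Figure D2:**
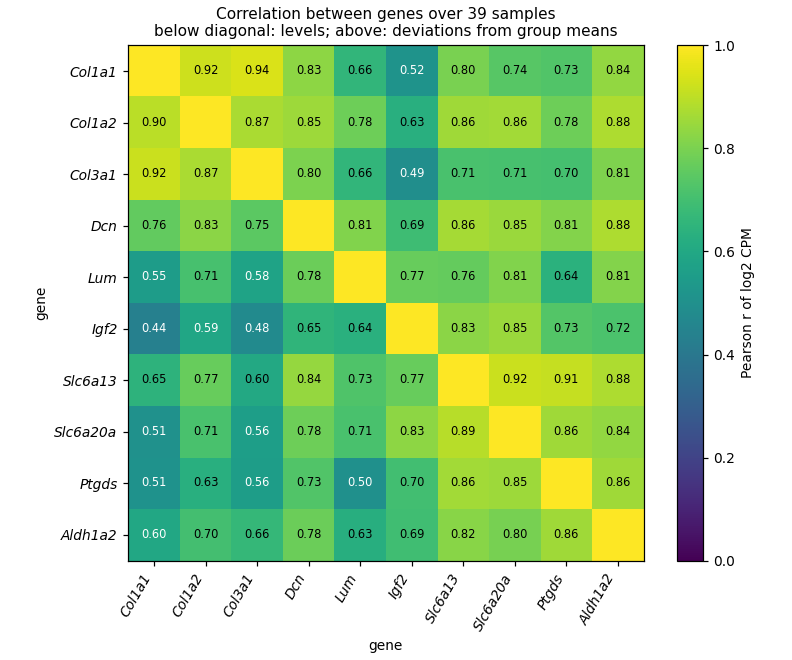
Both axes list the 10 genes, and each cell gives the Pearson r of a pair over 39 samples, on a color scale from 0 to 1. Below the diagonal are the levels in log2 CPM and above it the deviations from the group means, where the pairs of a collagen with a transporter or enzyme gene are higher (median 0.79) than below it (0.62).

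To follow fibroblast content without the 10 genes, a content index was made from 30 other fibroblast genes, as the mean z-score of their log2 CPM. The list includes Ccn3 and Col5a1, its most abundant genes at 75.1 and 46.1 CPM, whose own r with the mean z-score of the 10 genes was only 0.48 and 0.09. The index and the mean z-score of the 10 genes had a Pearson r of 0.96 and a Spearman rho of 0.91, and r was 0.93 without samples 15 and 38, which lay farthest from the median of the index. For single genes r with the index was 0.70 (Lum) to 0.89 (Slc6a13). It was 0.73 to 0.92 within samples 1 to 18 and 0.65 to 0.93 within samples 19 to 40. After the straight-line relation with the index was removed, the median r over the 45 pairs was 0.11, with 0.66 left among the collagens, 0.48 among the 4 transporter and enzyme genes and -0.37 between these blocks. As the index follows the mean of the 10 genes so closely, what is left nearly cancels over them. A low median and negative values between the blocks are therefore partly set by the removal itself. The index was 2.50 in sample 15, 1.56 in sample 38 and -1.46 in sample 25, against -0.45 to 0.68 in Sham.

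The 10 non-member genes closest to the mean z-score of the 10 genes were Fmod (r = 0.94), Aebp1, Colec12, Bmp7, Islr, Ogn, Zic1, Slc13a4, Gjb2 and Pcolce (r = 0.86), over 39 samples. Of these, 6 were on the fibroblast list used for the index. Fmod encodes fibromodulin, a proteoglycan of the decorin family, and was at 84.4 CPM in sample 15 and 33.5 CPM in sample 38 against a mean of 20.8 CPM. Pcolce encodes an enhancer of procollagen processing. Zic1 encodes a transcription factor of meningeal and dorsal neural cells and was at 65.5 CPM in sample 15 against a mean of 15.8 CPM.

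Lists for other cell types moved with the 10 genes to different degrees. The mean z-score of 5 border macrophage genes, which mark the macrophages of the meninges and perivascular spaces, had r of 0.76 with that of the 10 genes, and Mrc1 reached its highest level of 13.7 CPM in sample 38. Without samples 15 and 38 this r was 0.65. The 12 mural cell genes had r of 0.71, or 0.54 without these samples, but the most abundant of them, the pericyte gene Rgs5, had r of -0.16 and the next, Vtn, 0.77. For the 4 choroid plexus genes that could be tested r was 0.37, and for the 12 endothelial genes 0.12. Values for oligodendrocyte, hemoglobin, neuronal, and bone, muscle and skin genes were -0.08, -0.12, -0.09 and -0.18, and without samples 15 and 38 they were -0.20, -0.16, 0.09 and -0.12. The summed level of the 10 listed border macrophage genes was 19.9 to 31.2 CPM in Sham and up to 47.8 CPM after 1xCHI and 50.7 CPM after 3xCHI. The summed choroid plexus list was 10.4 to 28.0 CPM in Sham and reached 157 CPM after 2xCHI (sample 29), 912 CPM after 4xCHI (sample 24) and 2541 CPM after 5xCHI (sample 31). These were single samples, as 4xCHI samples 40 and 25 were at 20.6 and 13.0 CPM and the lowest 5xCHI sample at 9.04 CPM. No gene of any list was at 0 in all samples. The part of these cell types in the levels of the 10 genes was not tested. Bone, muscle and skin genes summed to 17.5 to 29.2 CPM in all 39 samples.

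With edgeR's quasi-likelihood test and Benjamini-Hochberg adjustment over all genes, none of the 10 genes differed among the 12 groups, where 0.0131% of all genes passed (2 of 15224). The lowest adjusted p among them was 0.299, for Aldh1a2, and the next was 0.577, for Ptgds. At an unadjusted p under 0.05, 2 of the 10 genes passed, against 7.03% of all genes. DESeq2 called 199 genes (1.31%) in the same comparison, with Aldh1a2 (adjusted p = 0.00365) as the only one of the 10. In the edgeR fit without samples 15 and 38 the adjusted p of Aldh1a2 was 0.989, and 0 of the 10 genes had an unadjusted p under 0.05, against 5.59% of all genes.

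The comparison of each time point with the group before that injury asked whether the genes moved within the first day. In all 9 comparisons edgeR called 0 of the 10 genes and 0% of all genes. DESeq2 also called 0 of the 10, against 0.184% of all genes in 1xCHI at 0.5 h, 0.0723% in 1xCHI at 4 h, 0.0263% in 3xCHI at 0.5 h, 0.00657% in 5xCHI at 0.5 h and 0% in the other 5. In the 1xCHI group at 4 h against Sham, 4 of 10 genes had an unadjusted p under 0.05, against 10.5% of all genes, and the median log2 fold change was 0.94 for the 10 genes and 0.01 for all genes. The fitted log2 fold changes were 1.61 ± 0.40 (SE) for Aldh1a2 (adjusted p = 0.218), 1.35 ± 0.39 for Ptgds (0.330), 1.30 ± 0.58 for Col3a1 (0.438) and 0.97 ± 0.46 for Col1a1 (0.458), from edgeR with 3 against 4 samples. These values rested on few libraries. Without samples 15 and 38 the median of the 10 genes was -0.21 and 2 genes had an unadjusted p under 0.05, against 6.19% of all genes. Without sample 15 alone, the log2 fold change was 0.78 for Aldh1a2 and 0.22 for Ptgds, and without sample 36 edgeR called both, at 2.00 (adjusted p = 0.0131) and 1.79 (0.0154), and 3.98% of all genes.

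In the 3xCHI group at 24 h against 2xCHI, 3 of 10 genes, the collagens, had an unadjusted p under 0.05, against 4.57% of all genes. Their log2 fold changes were 0.98 ± 0.47 (SE) for Col1a1, 0.95 ± 0.44 for Col1a2 and 1.37 ± 0.60 for Col3a1, each with an adjusted p of 0.947 from edgeR (n = 4 and 3). The number was 0 of 10 without samples 15 and 38, against 2% of all genes, and the log2 fold change of Col1a1 was 0.65 without sample 38. With the content index described above as a covariate, the log2 fold changes of Col1a1, Col1a2 and Col3a1 were 0.0210, 0.0044 and 0.0761, and the median of the 10 genes went from 0.62 to -0.30. In that fit the 3 of 10 genes with an unadjusted p under 0.05 were Slc6a13, Slc6a20a and Ptgds, all lower, against 4.05% of all genes, with an adjusted p of 0.829 each. In the other 7 comparisons 0 of 10 genes had an unadjusted p under 0.05, against 1.89 to 19.5% of all genes, and the median log2 fold change of the 10 genes was -0.39 to 0.05.

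With the time points of each injury number combined, edgeR called 0 of the 10 genes and 0% of all genes in each of the 5 comparisons with Sham. At an unadjusted p under 0.05 1 of 10 genes passed after 1xCHI (Aldh1a2, against 17.1% of all genes) and 1 of 10 after 3xCHI (Col1a1, against 3.88%). It was 0 of 10 after 2xCHI, 4xCHI and 5xCHI, against 4.48%, 1.68% and 11.6% of all genes. DESeq2 called 0 of the 10 as well, against 0.158% of all genes after 1xCHI, 0.0657% after 5xCHI and 0% in the other 3. From 1 to 5 injuries the median log2 fold change of the 10 genes was 0.33, -0.29, 0.02, 0.05 and -0.15, and the first was -0.09 without samples 15 and 38. A shift of the 10 genes with injury number was thus not detected against the spread between samples. Most genes vary less than these 10, and the size of shift that could have been detected in the 10 genes was not tested.

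Col1a1 had the highest log2 fold change of the 10 genes in the comparisons of 3xCHI, 4xCHI and 5xCHI with Sham. From 1 to 5 injuries its log2 fold change was 0.48 ± 0.39 (SE), 0.26 ± 0.50, 0.83 ± 0.40, 0.97 ± 0.49 and 0.66 ± 0.40, with adjusted p of 0.476, 0.965, 0.907, 1.00 and 0.488 in edgeR. With the content index as a covariate the values were 0.14 ± 0.16, 0.69 ± 0.21, 0.61 ± 0.17, 0.96 ± 0.21 and 0.71 ± 0.17. The SE of Col1a1 was lower with the index in each comparison, and the adjusted p was 0.651, 0.958, 0.922, 0.680 and 0.260, so that Col1a1 was still not called. With the index and the sample number range both as covariates, the log2 fold changes of Col1a1 for 3, 4 and 5 injuries were 0.61 ± 0.17, 0.95 ± 0.21 and 0.72 ± 0.17.

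With the index as a covariate, 0 of the 10 genes were called in any comparison. Of all genes, 0.0131% were called among the 12 groups and 0% in the others. The index follows the 10 genes (r = 0.70 to 0.89) and took up much of their spread. For Col1a1 the SD of log2 CPM was 0.66, and 0.39 after the index. The share of all genes with an unadjusted p under 0.05 among the groups hardly moved from 7.03%. It is therefore no like-for-like background for the counts below. Among the 12 groups, 6 of 10 genes had an unadjusted p under 0.05, against 7.05% of all genes, and they were Aldh1a2 (adjusted p = 0.215), Col1a1, Col1a2, Slc6a13, Slc6a20a and Ptgds. After 1xCHI the number was 3 of 10, with Aldh1a2 higher and Col1a2 and Lum lower, against 15.9% of all genes. After 2xCHI it was 1 of 10 (Col1a1, higher), against 3.84%, and after 4xCHI 2 of 10 (Col1a1 and Col3a1, higher), against 1.77%. After 5xCHI 5 of 10 genes had an unadjusted p under 0.05, against 11.9% of all genes. Col1a1 and Col3a1 (0.53 ± 0.25, adjusted p = 0.399) had positive log2 fold changes. Slc6a13 (-0.38 ± 0.17, 0.396), Slc6a20a (-0.40 ± 0.17, 0.385) and Lum (-0.62 ± 0.29, 0.400) had negative ones, all from edgeR with 10 against 4 samples. After 3xCHI 2 of 10 genes had an unadjusted p under 0.05, against 3.74% of all genes, and they were Col1a1 and Slc6a20a (-0.62 ± 0.17, adjusted p = 0.922). In the 1xCHI group at 4 h the index took the log2 fold change of Col1a1 from 0.97 to -0.02, that of Col3a1 from 1.30 to 0.05, that of Ptgds from 1.35 to 0.30 and that of Aldh1a2 from 1.61 to 0.64 ± 0.17 (adjusted p = 0.667). Dcn, Slc6a13 and Lum went from 0.69, 0.95 and 0.13 to -0.47, -0.47 and -1.14. These 3 lower genes and Aldh1a2 made 4 of 10 with an unadjusted p under 0.05, against 6.39% of all genes, and the median of the 10 genes was -0.24. At the other time points with the index, and apart from 3xCHI at 24 h, the number was 1 of 10 (higher) in 1xCHI at 0.5 h, against 23.3%, and 2 of 10 (lower) in 3xCHI at 0.5 h, against 1.69%. It was 0 of 10 in the other 5, against 1.87 to 6.62% of all genes. The index was 2.50, 0.62 and -0.28 in the 3 samples of the 1xCHI group at 4 h.

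**Figure D3:**
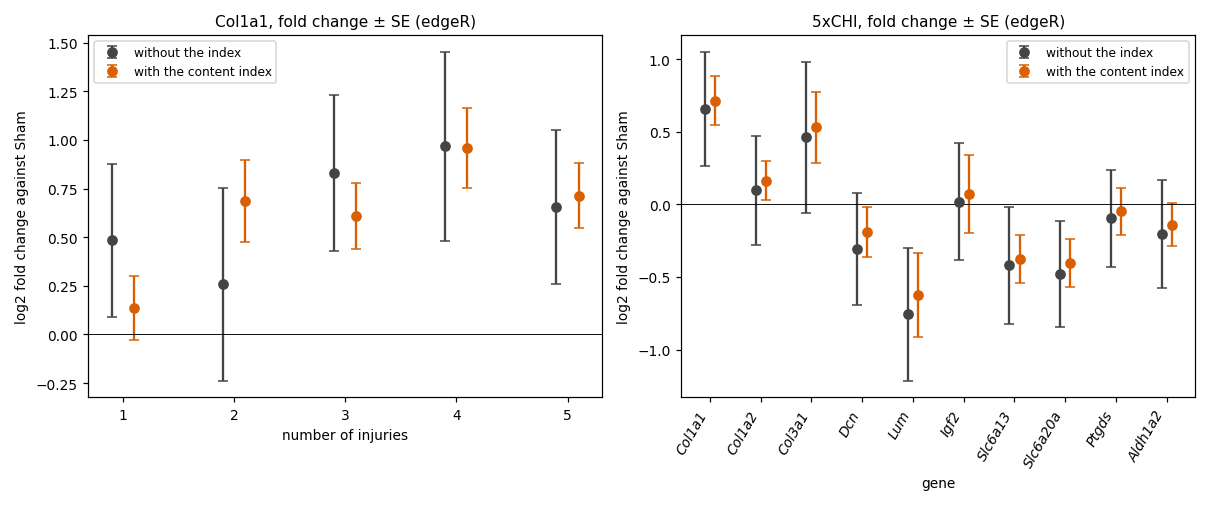
The vertical axes give edgeR log2 fold changes against Sham ± SE, without (grey) and with (orange) the content index as a covariate. The left panel plots Col1a1 by number of injuries and the right panel the 10 genes after 5xCHI: the errors are shorter with the index, Col1a1 lies at 0.71 with it after 5xCHI and Lum at -0.62, and none was called.

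After the straight-line relation with the index was removed from log2 CPM, Col1a1 was between -0.57 and -0.35 in the 4 Sham samples. All 9 3xCHI samples, 3 of 3 2xCHI samples, 3 of 3 4xCHI samples, 9 of 10 5xCHI samples and 4 of 10 1xCHI samples were above this range. Of all genes tested, 0.315%, 4.78% and 2.66% had all samples above the Sham range after 3xCHI, 2xCHI and 4xCHI. Slc6a20a was below the range of the Sham samples in 6 of 10 1xCHI, 2 of 3 2xCHI, 9 of 9 3xCHI, 3 of 3 4xCHI and 9 of 10 5xCHI samples, where 0.21% and 3.05% of all genes had all 3xCHI and all 4xCHI samples below. For Aldh1a2, 7 of 10 1xCHI and 3 of 3 2xCHI samples were above the Sham range, and 5 of 9 3xCHI, 2 of 3 4xCHI and 6 of 10 5xCHI samples below it. Ptgds was above the range in 7 of 10 1xCHI samples and below it in 3 of 3 4xCHI samples, and Col3a1 was above it in 3 of 3 4xCHI samples. For the other 5 genes no group had all of its samples on one side. The relation with the index was estimated from the same 39 samples, and the 4 Sham samples set the range. What is left nearly cancels over the 10 genes, because the index follows their mean (r = 0.96). Genes above and genes below the range are therefore not separate results.

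The blocks could also be compared inside each sample, which needs no index. The mean log2 CPM of the 3 collagens minus that of Slc6a13, Slc6a20a, Ptgds and Aldh1a2, a contrast chosen after their correlations had been seen and given with no test, was -1.58, -1.94, -1.93 and -1.61 in Sham. From 1 to 5 injuries it was -1.87 ± 0.31 (SD, n = 10), -1.52 ± 0.49 (n = 3), -1.16 ± 0.44 (n = 9), -0.83 ± 0.16 (n = 3) and -1.08 ± 0.40 (n = 10). The value was above the highest Sham sample in 2 of 10, 1 of 3, 8 of 9, 3 of 3 and 10 of 10 samples. The margin was small for some, as the lowest 5xCHI sample was at -1.55 and the highest Sham sample at -1.58. The samples at the ends of the index took no common side, as sample 15 was at -2.08, sample 38 at -0.40 (the highest of the 39) and sample 25 at -0.65. Group membership covered 63.7% of the variance of this difference, against 27.9% for the index and 19.4% for the mean z-score of the 10 genes. Over all single genes tested the median was 29.0%. The blocks were read from levels in these samples, where differences between groups also enter the correlations. A high share for their difference is thus partly set by that choice, and Dcn, Lum and Igf2 are in neither block.

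The same difference was read within each range of sample numbers. In samples 1 to 18 it was -1.58 in the 1 Sham sample, -1.96 ± 0.32 (SD, n = 6) after 1xCHI, -1.36 ± 0.33 (n = 5) after 3xCHI and -0.86 ± 0.34 (n = 6) after 5xCHI. In samples 19 to 40 it was -1.83 ± 0.19 (n = 3) in Sham, -1.73 ± 0.26 (n = 4) after 1xCHI, -0.91 ± 0.47 (n = 4) after 3xCHI, -0.83 ± 0.16 (n = 3) after 4xCHI and -1.41 ± 0.23 (n = 4) after 5xCHI. In both ranges the means after 3xCHI and 5xCHI were above those of Sham and 1xCHI, but 5xCHI was above 3xCHI in the first range and below it in the second.

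**Figure D4:**
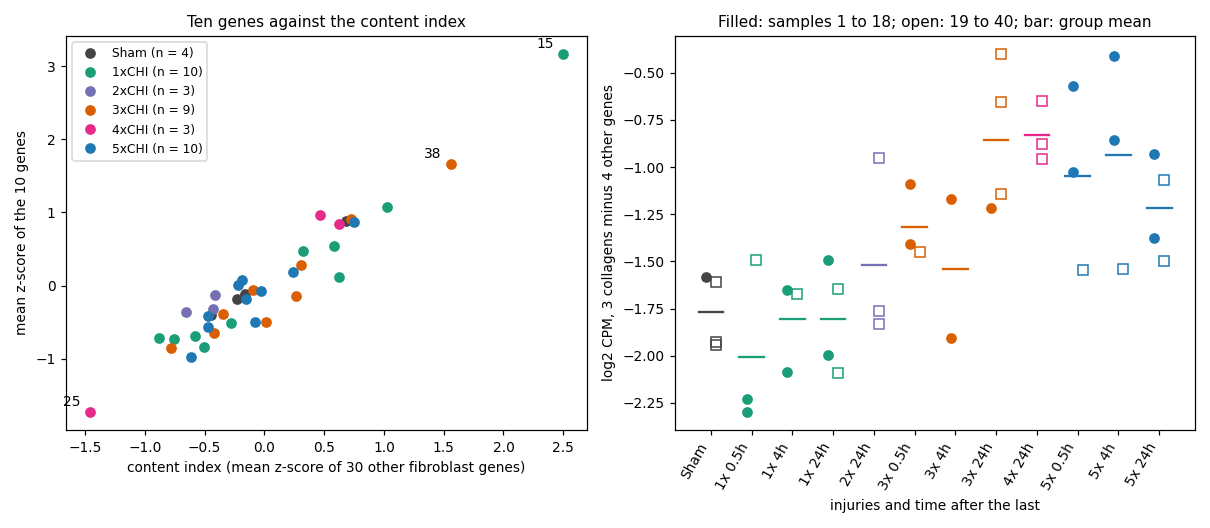
The left panel plots the mean z-score of the 10 genes against the content index, 1 point per sample colored by number of injuries: the points follow a line (r = 0.96), with samples 15 and 38 at the top right and 25 at the bottom left. The right panel plots the log2 CPM of the 3 collagens minus that of the 4 transporter and enzyme genes by group, with samples 1 to 18 filled, 19 to 40 open and bars at the group means: Sham lies at -1.94 to -1.58 and all 5xCHI samples above it, the lowest at -1.55.

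Genes that act with the 10 were read from lists, in the 5 comparisons of an injury number with Sham. In these, 17.1%, 4.48%, 3.88%, 1.68% and 11.6% of all genes had an unadjusted p under 0.05, from 1 to 5 injuries, and edgeR called 0 genes of any list named here. Of 19 genes that modify, fold or cross-link collagen, led by Sparc and P4hb, the numbers with an unadjusted p under 0.05 were 0, 1 (lower), 1 (higher), 0 and 3 (higher). Of 17 genes of scar formation and fibroblast activation, led by Fn1 and Ccn2, they were 1 (lower), 0, 1 (higher), 0 and 4 (higher). After 5xCHI the median log2 fold changes of these lists were 0.16 and 0.30, against 0.01 for all genes. The mean z-scores of the lists had r of 0.33 and 0.46 with that of the 10 genes, or 0.19 and 0.28 without samples 15 and 38, and their leading genes had r of 0.23 (Sparc), 0.07 (P4hb), 0.73 (Fn1, which encodes fibronectin) and 0.05 (Ccn2).

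The partner pathways of Aldh1a2, Igf2 and Ptgds were read in the same way. Of 12 retinoid genes, led by Aldh1a1 and Rxra, 3, 1, 1, 1 and 1 had an unadjusted p under 0.05 from 1 to 5 injuries, all higher, and r of the list with the 10 genes was 0.41, or 0.08 without samples 15 and 38. Of 10 genes of the insulin-like growth factor system, led by Igfbp5 and Igfbp4, the numbers were 1 (higher), 1 (lower), 1 (higher), 0 and 5 (higher), with a median log2 fold change of 0.16 after 5xCHI and r of 0.29, or 0.15 without these samples. Of 6 genes of prostaglandin D2 synthesis and its receptors, led by Ptgs2 and Ptgs1, 0 passed after 1 to 4 injuries and 1 (higher) after 5xCHI, where 11.6% of all genes passed, and r was 0.25, or 0.15 without them.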

How the data were processed

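The authors deposited estimated counts per gene for 40 samples of bulk RNA-seq, made by a sequencing company, neither normalized nor filtered, and 4.47% of values were not whole. The aligner and counting strand are not given in the sources used here, and the processing notes name mm10. Counts were rounded and tested in edgeR 4.0.16 by quasi-likelihood after TMM scaling, and DESeq2 1.42.0 (both in R 4.3.3) served as the other tool. A feature was dropped when over 4 of the 39 samples held under 10 counts. Calls needed a Benjamini-Hochberg adjusted p below 0.05. CPM used plain totals, and correlations used log2 CPM with TMM and a prior count of 1. Total counts ranged from 15926014 to 27859547.

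The 10 genes and all lists were chosen with earlier results of these data known. Named genes were the 10, the 10 nearest genes by Pearson r, and the 2 most abundant of each list, and the result of 1 list is not reported here. Alternatives were library-size scaling, no filter, all 40 samples, covariates and leaving out each sample. Gene positions came from GENCODE M21 and promoters from RefSeq (GRCm38.p6). Of 46 replicate pairs, none agreed within sampling noise (smallest chi-square per gene 6.85).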

Additional observations from a re-analysis of the deposited data

Results flagged for a closer look

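In groups of 4 to 10 samples, 15 of 70 sets of values had 1 sample far from the others by Dixon's test, where chance gives about 1 in 20 sets. The genes were selected on these levels and vary together, so the sets are not independent, this rate is no yardstick for their number, and the values are given as a description. Samples 15, 38 and 12 made up all of them. In 1xCHI (n = 10), sample 15 stood apart for 9 genes, with 64.8 CPM for Col1a2, 20.3 for Col3a1, 43.2 for Dcn, 9.62 for Lum, 208 for Igf2, 35.9 for Slc6a13, 80.1 for Slc6a20a, 3551 for Ptgds and 46.9 CPM for Aldh1a2. The nearest 1xCHI sample was at 27.2, 9.54, 20.6, 4.48, 73.4, 14.0, 25.3, 1067 and 17.8 CPM. In 3xCHI (n = 9), sample 38 stood apart with 33.3 CPM for Dcn, 10.3 for Lum and 17.0 CPM for Aldh1a2, where the nearest sample was at 14.8, 4.40 and 10.4 CPM. In 5xCHI, sample 12 stood apart with 10.4 CPM for Slc6a13 and 1113 CPM for Ptgds (n = 10), and with 15.8 CPM for Dcn among the 4 samples at 24 h, where the nearest was at 8.73 CPM.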

How the results depend on the processing

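No paired analysis was possible because no group shares a replicate number with another. Of 290 counts and correlations recomputed under other settings, of which some changed 2 choices together, 271 stayed within 1.5 times the reported count or within the reported spread, and of 315 fold changes of the 10 genes 284 kept their direction. The causes of the other changes were not tested. Most of the 290 were counts of called genes that were 0 in the reported fit, where agreement only means 0 again. DESeq2 called 199 genes among the 12 groups, 1 of them one of the 10, 28 in 1xCHI at 0.5 h, 11 in 1xCHI at 4 h, 4 in 3xCHI at 0.5 h, 1 in 5xCHI at 0.5 h, 24 in 1xCHI and 10 in 5xCHI. With no filter 46 genes were called among the groups, 2 in 1xCHI at 4 h, 4 in 3xCHI at 0.5 h and 1 in 5xCHI. With the index and number range as covariates 1 gene was called among the groups. Leaving out 1 sample gave 0 to 16 calls among the groups, 0 to 3602 in 1xCHI at 0.5 h (the most without sample 27), 0 to 606 in 1xCHI at 4 h (without sample 36, and 0 to 2 of the 10) and 0 to 5 in 3xCHI at 0.5 h.

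Without samples 15 and 38 the median r was 0.58 over all pairs, 0.86 for the collagens, 0.76 for the 4 transporter and enzyme genes and 0.47 between the blocks, and for the 4 genes it was 0.91 within samples 1 to 18 and 0.80 within samples 19 to 40. In 1xCHI at 4 h the log2 fold change changed sign with the index, without samples 15 and 38, with both, and with the index and number range, to -0.47, -0.49, -0.58 and -0.47 for Dcn, -1.14, -1.415, -1.39 and -1.18 for Lum, and -0.47, -0.52, -0.68 and -0.46 for Slc6a13. Col1a1 was at -0.0194 with the index and -0.0238 with the index and number range. In 3xCHI at 24 h, the same 4 settings gave -0.76, -0.0413, -0.62 and -0.79 for Slc6a20a. The settings with the index gave -0.53, -0.36 and -0.52 for Ptgds and -0.59, -0.41 and -0.61 for Slc6a13, while Col1a2 was at -0.0085 with the index and number range and Col3a1 at -0.0058 with the index without samples 15 and 38. Col1a2 after 1xCHI was -0.33 with the index, -0.0569 with the number range, -0.33 without samples 15 and 38, -0.33 with the index without them and -0.30 with index and number range.

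Leaving out 1 sample turned the sign for Aldh1a2 in 1xCHI at 0.5 h (-0.0348 to 0.35). In 1xCHI it did so for Col1a2 (-0.33 to 0.25) and Lum (-0.68 to 0.00544), and in 1xCHI at 4 h for Dcn (-0.49 to 1.08), Lum (-1.41 to 0.61) and Slc6a13 (-0.52 to 1.38). In 3xCHI at 24 h it did so for Ptgds (-0.0266 to 0.25) and Slc6a20a (-0.041 to 0.44), and in 5xCHI for Col1a2 (-0.0031 to 0.30), Dcn (-0.49 to 0.0264), Igf2 (-0.17 to 0.15) and Ptgds (-0.23 to 0.0457). Samples per group numbered 2 to 10, and for Col1a1 after 4xCHI (n = 3 against 4) a log2 fold change of 0.97 with SE 0.49 did not pass the adjusted test.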
